A study of Homo sapiens with 36 samples.

Results

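The genes described here are 10 genes of secreted factors of the bone morphogenetic protein (BMP) pathway, out of 20163 protein-coding genes of the annotation. They were chosen by name: the BMP ligand genes BMP2, BMP3, BMP4, BMP6 and BMP7, the activin subunit gene INHBB, and the antagonist genes NOG, GREM1, CHRD and FST. Earlier results of these data were known when they were chosen, so their counts beside genome-wide shares are a description and not those of a blind pick. The study asked how the long isoform of PHF19, a partner of Polycomb repressive complex 2 (PRC2), affects PRC2 on chromatin in prostate cancer cells. PHF19, EZH2, SUZ12, MTF2 and H3K27me3 were profiled by ChIP-seq in the metastatic prostate cancer line DU145, with 2 replicates per condition. Control cells (shCTR) carried a control short hairpin RNA, and PHF19L-depleted cells (shPHF19L#4) carried 1 hairpin against the long isoform. In the data used here, effects of this hairpin beyond PHF19L cannot be told apart from depletion. By ChIP-qPCR at selected targets, the paper also reports gains of EZH2, H3K27me3 and MTF2 with another hairpin, shPHF19L#B. There, MTF2 fell to basal levels or lower once PHF19L was re-expressed. Available here were 14 peak lists (PHF19, EZH2 and SUZ12 of shCTR, and H3K27me3 and MTF2 of both conditions) and 5 DiffBind tables. RNA-seq was not analysed here, so neither the depletion nor the expression of the genes was checked.

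BMPs are secreted dimers that bind paired serine/threonine kinase receptors and act through SMAD proteins. Antagonists hold the ligands outside the cell and keep them from their receptors. PRC2 methylates lysine 27 of histone H3 through its catalytic subunit EZH2 together with SUZ12, and many developmental signalling genes are Polycomb targets in stem cells, with H3K27me3 over CpG-rich starts. PHF19 and MTF2 are Polycomb-like proteins, alternative accessory subunits of PRC2 that can bind CpG-rich DNA. BMPs are studied in prostate cancer for their part in bone metastasis.

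A peak was assigned to a gene when it overlapped, by at least 1 bp, the interval from 2.5 kb upstream of the outermost gene start to the gene end. Positions are on GRCh37, and distances are from the start of the canonical transcript, which for BMP4 lies 1936 bp inside the outermost start. The DiffBind tables give, for each region, the authors' mean log2 read concentration of each condition. The 4 tables of shPHF19L#4 against shCTR have 2 header lines, of which the first names an input column where the second names a knockdown column. The second was followed, and every difference between the conditions rests on this reading. A difference of these means is shPHF19L#4 minus shCTR, except for PHF19, where it is shCTR ChIP minus input. Only regions that passed the authors' P value threshold are listed. There is no value per replicate, and the authors' P value and FDR columns were not used, so a difference is given here without an error. With 2 replicates against 2, an exact permutation test cannot give a two-sided p under 0.333, and none was run.

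Sequence content was described for 8 of the 10 genes. For 6 of these, the 200 bases upstream of the start lay wholly or partly in a PHF19 or MTF2 region of these tables, and 3 of these stretches are shown because both proteins can bind CpG-rich DNA. The sequences are from GRCh37, read in the direction of the gene, with CpG dinucleotides in capitals. They were picked after the CpG counts had been seen, to show the range. INHBB is chr2:121103512-121103711, CHRD chr3:184097642-184097841 and BMP3 chr4:81951662-81951861, all on the plus strand. They hold 36, 25 and 4 CpG in this order.
INHBB: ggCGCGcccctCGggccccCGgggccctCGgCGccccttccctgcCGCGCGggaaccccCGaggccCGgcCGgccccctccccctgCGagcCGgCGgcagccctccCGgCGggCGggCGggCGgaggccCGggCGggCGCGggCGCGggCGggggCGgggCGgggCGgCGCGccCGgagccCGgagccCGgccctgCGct
CHRD: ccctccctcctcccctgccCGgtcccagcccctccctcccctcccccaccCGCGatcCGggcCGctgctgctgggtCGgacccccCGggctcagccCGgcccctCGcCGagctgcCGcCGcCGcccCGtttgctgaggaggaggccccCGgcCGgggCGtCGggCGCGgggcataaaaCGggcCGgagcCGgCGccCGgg
BMP3: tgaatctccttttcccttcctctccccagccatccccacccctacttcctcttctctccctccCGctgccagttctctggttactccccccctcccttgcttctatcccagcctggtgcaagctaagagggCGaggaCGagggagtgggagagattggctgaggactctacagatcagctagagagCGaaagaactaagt

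The same window upstream of 20140 protein-coding starts held a median of 15 CpG, with quartiles of 6 and 22. At least as many CpG as upstream of INHBB were found at 1.49% of these starts, as many as upstream of CHRD at 18.8%, and as many as upstream of BMP3 at 81.4%. Of the other genes, GREM1 had 27, BMP6 had 22, BMP7 had 17, FST had 15 and NOG had 11. The 8 genes thus ran from 4 to 36 CpG, with 5 above the median of all starts. Those on the ligand side, INHBB included, had a median of 19.5 CpG and the antagonist genes of 20. Over the whole listed regions, CpG density was above the median of the table for 3 of 4 of these genes in the PHF19 table, 7 of 8 for EZH2, 3 of 3 for SUZ12 and 6 of 7 for MTF2. Their MTF2 regions held a median of 62.4 CpG per kb, against 49.0 over the 2546 regions of that table. BMP3, with few CpG just upstream of its start, had 58.8 per kb over its MTF2 region, which runs into the first exon and intron.

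**Figure D1:**
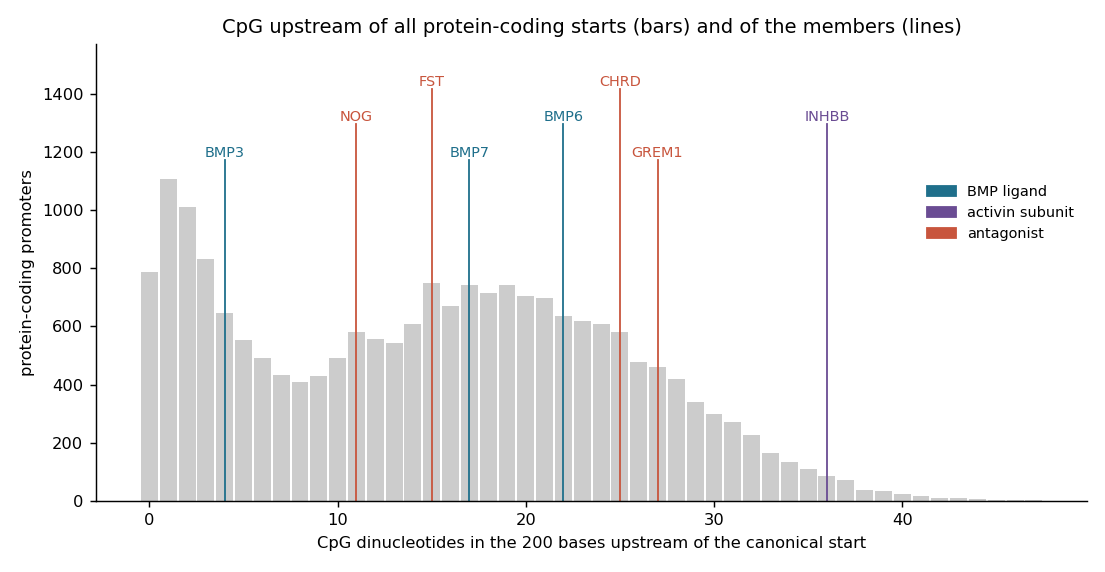
Number of CpG dinucleotides in the 200 bases upstream of the canonical start (x axis) against the number of protein-coding promoters (bars, y axis), with a line for each of 8 genes coloured by role. INHBB lies at the upper end with 36 CpG, and BMP3 at the lower end with 4.

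In shCTR cells, PHF19 peaks were found in both replicates at 5 of the 10 genes, namely BMP4, BMP6, INHBB, CHRD and FST, against 3.6% of all protein-coding genes. EZH2 peaks were found in both replicates at BMP4, BMP6, BMP7, INHBB and CHRD, which is 5 of 10 against 2.32%. SUZ12 peaks were found in both at BMP4 and INHBB, 2 of 10 against 0.268%. H3K27me3 peaks were found in both at 9 genes, against 13.1%, with NOG as the exception. MTF2 peaks were found in both at 7 genes, against 5.62%, with BMP3, NOG and GREM1 as the exceptions. BMP4 and INHBB were the only members with peaks of all 5 targets in both shCTR replicates, 2 of 10 against 0.258%, close to the share for SUZ12 alone.

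The replicates differed in the number of peaks and of genes with one. The PHF19 lists of replicates 1 and 2 hold 1072 and 14218 peaks, and 5 and 9 of the 10 genes had a peak in them, against 3.78% and 23.4% of all protein-coding genes. The EZH2 lists hold 2060 and 1236 peaks, with 5 and 8 of the genes, against 3.27% and 5.04%. The SUZ12 lists hold 1523 and 232 peaks, with 2 and 5 of the genes, against 1.10% and 0.972%. For EZH2 and SUZ12 the list with fewer peaks thus held more of the 10 genes. A stricter MACS score of at least 100 left 3 genes with EZH2 in both replicates, against 1.29% of all protein-coding genes, and 1 with SUZ12, against 0.109%. With the same cut, H3K27me3 was in both replicates at 6 genes in shCTR, against 9.11%, and at 8 in shPHF19L#4, against 14.5%. For MTF2 in shCTR, 7 genes had a peak in replicate 1, against 5.86%, and 10 in replicate 2, a list with a peak at 49.5% of all protein-coding genes, so a peak in that list alone says little about a gene.

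**Figure D2:**
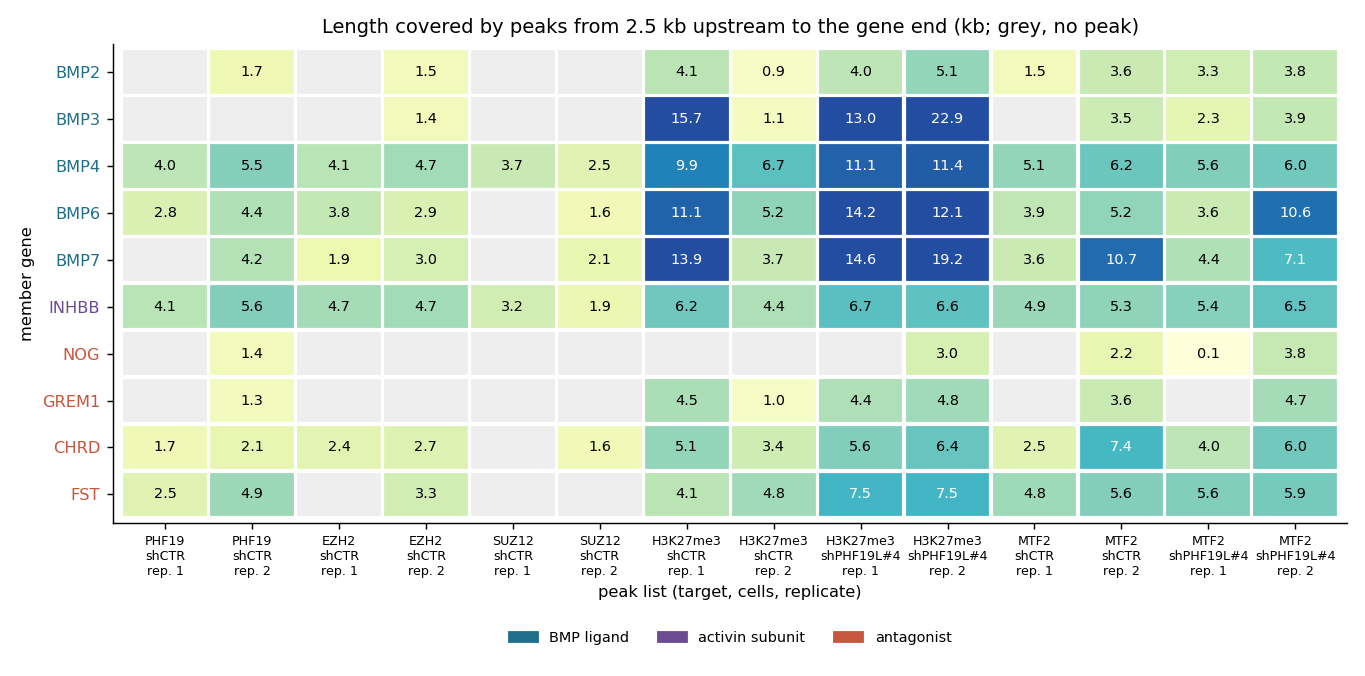
Length in kb covered by peaks between 2.5 kb upstream of the start and the gene end, for each gene (rows) and peak list (columns: target, cells, replicate); grey cells hold no peak. BMP4 and INHBB have a peak in all 14 lists, and NOG in the fewest.

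BMP4, a ligand with wide roles in patterning and differentiation, had 532 tags at its PHF19 peak in replicate 1 and a MACS score of 3100 in replicate 2. In these lists 1.03% and 0.0352% of the peaks had a higher value, and 3100 is a score shared by 47 peaks of replicate 2. Its EZH2 peaks scored 492 and 1118, and its SUZ12 peaks 70.1 and 149. Both EZH2 peaks and both PHF19 peaks covered the canonical start and reached 3384 to 4016 bp into the gene. In the PHF19 table its region ran from 1869 bp upstream to 3597 bp inside, mostly over intron (3197 bp), with 401 bp of exon, all untranslated.

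BMP6, a ligand also known for its part in iron regulation through hepcidin, had 120 tags at its PHF19 peak in replicate 1 and a score of 997 in replicate 2. Its EZH2 peaks scored 191 and 346. Replicate 1 held no SUZ12 peak, and replicate 2 held one with a score of 65.3. BMP7, a ligand of kidney and bone development, had no PHF19 peak in replicate 1 and a peak scoring 413 over its start in replicate 2. Its EZH2 peaks scored 85.3 and 726 and both covered the start. BMP2, a bone-inducing ligand, lacked PHF19 and EZH2 peaks in replicate 1, and in replicate 2 these scored 217 and 85.9. BMP3, an atypical member that opposes other BMPs, had no PHF19 peak in either replicate, and its single EZH2 peak, in replicate 2, scored 62.8. The 5 ligand genes therefore ran from BMP4, with every target in both replicates, to BMP3, with H3K27me3 as the sole target in both.

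INHBB encodes the inhibin beta B subunit, which pairs to form activin B. Its PHF19 peak had 199 tags in replicate 1 and a score of 2621 in replicate 2, and its EZH2 peaks scored 840 and 1474. In the EZH2 lists 0.534% and 1.54% of the peaks scored higher. Its SUZ12 peaks scored 213 and 173. Its MTF2 peaks in shCTR were 6002 and 6369 bp wide and covered the start, and the MTF2 region of the table ran from 3593 bp upstream to 2896 bp inside.

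Among the antagonists, CHRD encodes chordin, which binds BMP ligands. It had 72 tags at its PHF19 peak in replicate 1 and a score of 881 in replicate 2, and EZH2 peaks scoring 81.6 and 535. The start of CHRD lies within the longest annotated transcript of THPO, the thrombopoietin gene on the other strand, and all 4 of its listed regions also overlap the interval of THPO. FST encodes follistatin, which binds activins with high affinity. It had 3 PHF19 peaks in replicate 1, with up to 75 tags, and 1 peak scoring 1708 in replicate 2, and its EZH2 peak was found in replicate 2 alone, with a score of 187. NOG and GREM1 encode noggin and gremlin, which bind BMPs, and neither had an EZH2 or SUZ12 peak in any shCTR list. Their PHF19 peaks, in replicate 2 alone, scored 91.7 and 86.3 and began 159 and 217 bp inside the gene. CHRD and FST thus had PHF19 in both replicates, as did BMP4, BMP6 and INHBB, whereas NOG and GREM1 did not.

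In the PHF19 table, 6 of the 10 genes had a region (BMP2, BMP4, BMP6, INHBB, CHRD and FST), against 4.64% of all protein-coding genes. At BMP4 the mean log2 concentration was 9.68 in the ChIP and 6.66 in the input, a difference of 3.02, and 96.1% of the 1245 regions had a smaller one. INHBB had 8.46 and 6.14, a difference of 2.32. FST had 8.15 and 6.02, a difference of 2.13. The differences of BMP2, CHRD and BMP6 were 1.97, 1.69 and 1.62, so all 6 were above the table's median of 1.58. Each was at least 1, as in 98.4% of the listed regions.

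Across the tables of shPHF19L#4 against shCTR, all 10 genes had an EZH2 region (9.54% of all protein-coding genes did), 9 had an MTF2 region (9.02%), 5 had a SUZ12 region (2.44%) and 0 had an H3K27me3 region (3.53%). GREM1 lacked an MTF2 region. The SUZ12 regions were at BMP2, BMP4, BMP6, INHBB and CHRD. Every one of these regions had a higher mean in shPHF19L#4. So did nearly every listed region, 2407 of 2408 for EZH2 (100% after rounding), 508 of 508 for SUZ12 (100%) and 99.7% for MTF2, so that the direction is shared with the whole tables. Of the 30 regions of the genes, the PHF19 ones included, 29 covered the canonical start. Most genes with a region had one over their start in the tables as a whole, 59.6% for PHF19, 72.5% for EZH2, 70.1% for SUZ12 and 72.3% for MTF2, beside 6 of 6, 10 of 10, 5 of 5 and 8 of 9 here. The exception was the MTF2 region of NOG, which began 1849 bp inside and lay mostly past the end of this short gene.

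**Figure D3:**
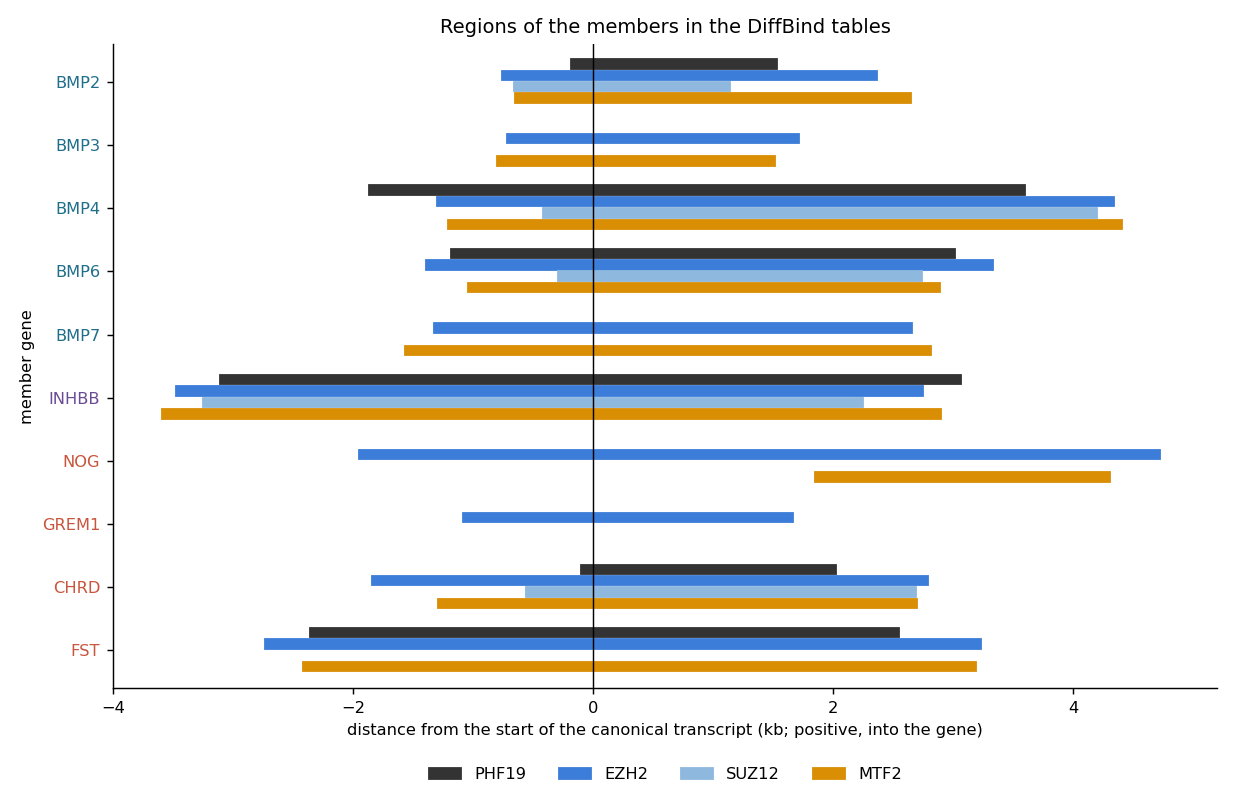
Extent of the regions of the genes in the PHF19, EZH2, SUZ12 and MTF2 tables, as distance in kb from the start of the canonical transcript (x axis, positive into the gene), with 1 row per gene. All regions but the MTF2 one of NOG lie across the start. Those of INHBB reach 3105 to 3593 bp upstream and 2245 to 3062 bp into the gene.

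BMP2 had the largest differences among the genes in the EZH2, SUZ12 and MTF2 tables. Its EZH2 region had a mean log2 concentration of 6.06 in shCTR and 7.64 in shPHF19L#4, a difference of 1.58. The SUZ12 values were 4.30 and 5.87 and the MTF2 values 7.60 and 8.84, with differences of 1.57 and 1.24. Of the regions in each table, 89.9%, 97.8% and 93.1% had smaller ones. The SUZ12 difference of BMP2 starts from a low level, as neither shCTR list held a SUZ12 peak there. Per kb of width, 0.591% of the SUZ12 regions had a lower shCTR level. BMP4 had the smallest differences among the genes in the same 3 tables. Its EZH2 region had 8.57 and 9.41, its SUZ12 region 7.49 and 8.03, and its MTF2 region 10.22 and 10.77. The differences were 0.84, 0.54 and 0.55, and 14.0%, 0.984% and 6.28% of the regions had smaller ones. BMP2 and BMP4, close relatives in sequence, thus stood at opposite ends of the genes.

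The other ligands lay between them. BMP6 had EZH2 means of 7.70 and 9.01 (difference 1.31), SUZ12 means of 6.44 and 7.49 (1.05) and MTF2 means of 9.42 and 10.40 (0.98). BMP7 had EZH2 means of 7.37 and 8.45 (1.08) and MTF2 means of 8.86 and 9.76 (0.90). BMP3 had EZH2 means of 5.74 and 6.75 (1.01) and MTF2 means of 7.06 and 8.20 (1.14). The MTF2 difference of BMP3 was thus the second in size after that of BMP2, while its EZH2 difference was below the table's median of 1.16. INHBB had EZH2 means of 8.55 and 9.91 (1.36), SUZ12 means of 7.57 and 8.39 (0.82) and MTF2 means of 10.54 and 11.37 (0.83). For INHBB, the EZH2 difference was above the table's median and those of SUZ12 and MTF2 were below (medians 0.96 and 0.87).

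Of the antagonists, CHRD had EZH2 means of 7.48 and 8.82 (difference 1.34), SUZ12 means of 6.33 and 7.27 (0.94) and MTF2 means of 9.25 and 10.01 (0.76). NOG, with no EZH2 peak in either shCTR list, had EZH2 means of 6.75 and 7.96 (1.21) and MTF2 means of 6.81 and 7.75 (0.94). FST had EZH2 means of 7.46 and 8.44 (0.98) and MTF2 means of 9.07 and 9.89 (0.82), and GREM1 had EZH2 means of 5.74 and 6.66 (0.92). Among the antagonists, CHRD had the largest EZH2 difference and GREM1 the smallest.

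Read against the whole tables, the differences of the 10 genes were ordinary as a set, although those of BMP2 and BMP4 lay towards the ends. The median over the genes was 1.15 for EZH2, 0.94 for SUZ12 and 0.90 for MTF2, against 1.16, 0.96 and 0.87 over all listed regions, and 5 of 10, 2 of 5 and 5 of 9 genes were above the table's median. A difference of at least 1 was found for 7 of 10 genes in the EZH2 table, against 70.9% of its regions. It was found for BMP2 and BMP6 in the SUZ12 table, 2 of 5 against 45.9%, and for BMP2 and BMP3 in the MTF2 table, 2 of 9 against 28.7%.

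**Figure D4:**
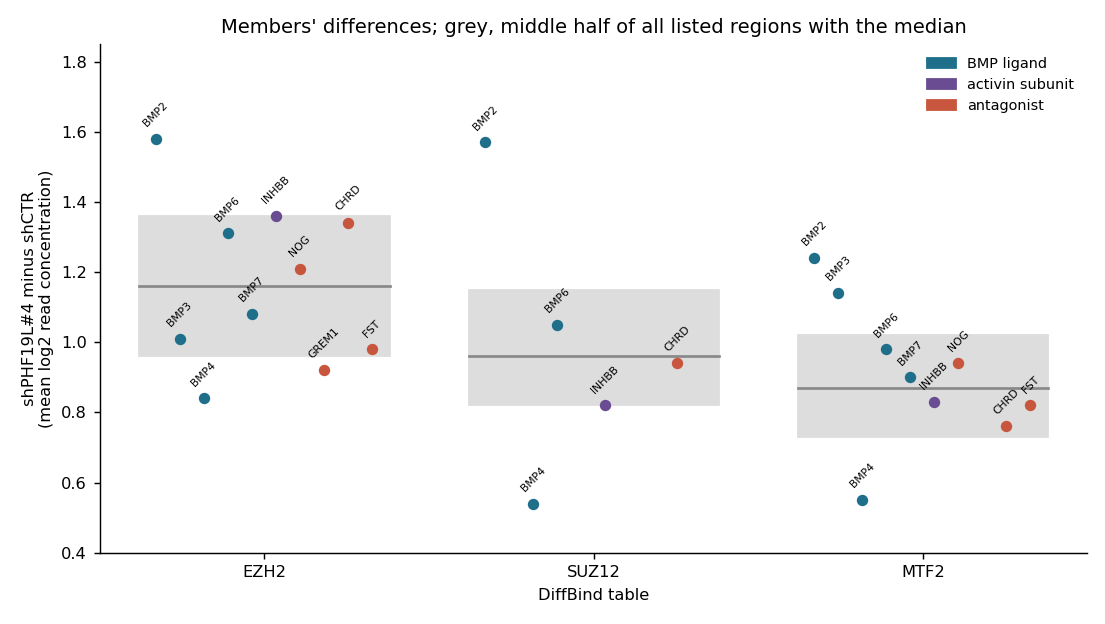
Difference of mean log2 read concentration, shPHF19L#4 minus shCTR (y axis), of each listed gene in the EZH2, SUZ12 and MTF2 tables (x axis), coloured by role; the grey box spans the quartiles of all listed regions and its line is their median. BMP2 is the highest and BMP4 the lowest of the genes in all 3 tables.

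Because regions differ in width, levels were compared per kb, as the mean log2 concentration minus the log2 of the width in kb. For EZH2 in shCTR, BMP4 (6.08) and INHBB (5.91) came first, then BMP6 (5.46), BMP7 (5.38), CHRD (5.27) and FST (4.88). These 6 were above the table's median of 4.52, and BMP3 (4.46), BMP2 (4.42), GREM1 (4.28) and NOG (4.01) were below it. For MTF2 the same 6 genes were above the median of 5.94, with INHBB (7.84) and BMP4 (7.73) first, and BMP2 (5.88), BMP3 (5.85) and NOG (5.51) were below. In the PHF19 table BMP4 (7.23) was first and BMP2 (4.70) was the one gene under the median of 5.24. SUZ12 levels ran from 5.29 at BMP4 to 3.45 at BMP2, with a median of 4.57 over the table. Without values per replicate, it cannot be said which neighbours in these orders differ beyond their spread.

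**Figure D5:**
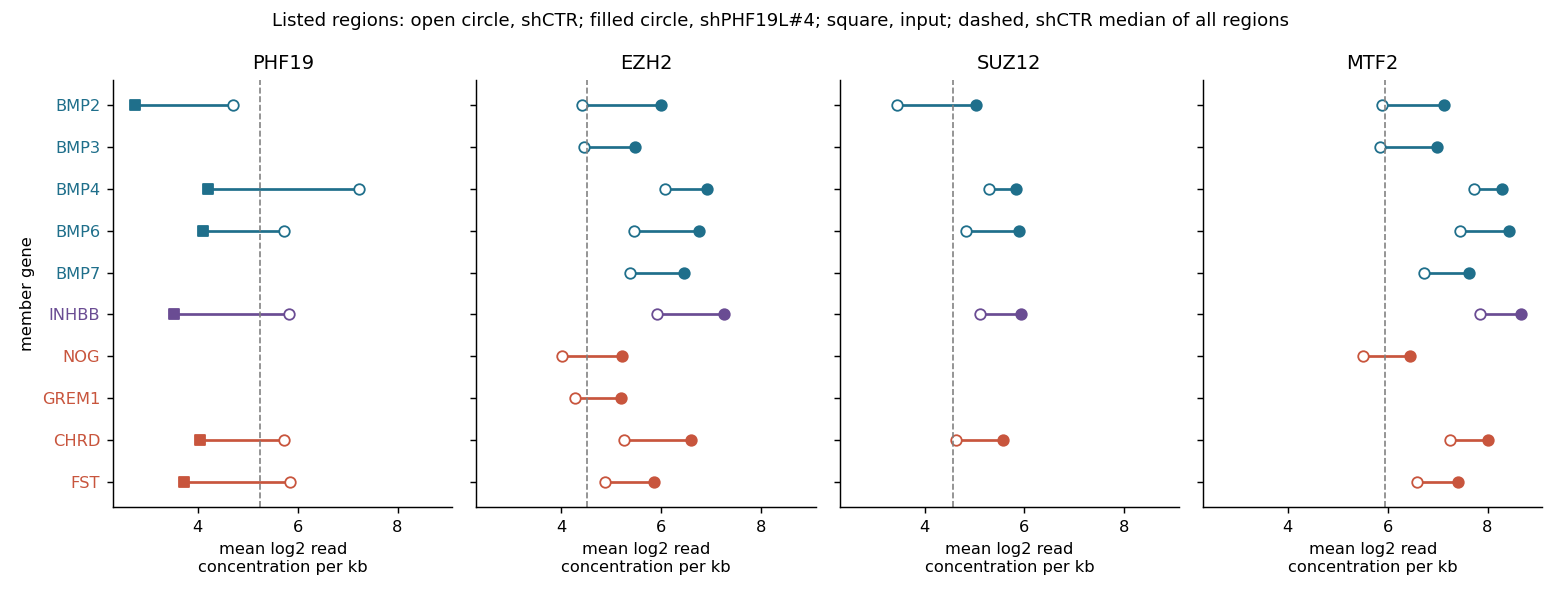
Mean log2 read concentration per kb (x axis) of the listed region of each gene (rows) in shCTR (open circles) and shPHF19L#4 (filled circles), or in shCTR ChIP (open circles) and input (squares) for PHF19; dashed lines are the shCTR median of all regions in the table. BMP4 and INHBB have the highest shCTR levels for EZH2, SUZ12 and MTF2, and BMP2 the lowest for SUZ12.

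Ligand and antagonist genes were then compared, with INHBB counted on the ligand side. EZH2 regions were listed for 6 of 6 ligand genes and 4 of 4 antagonist genes, MTF2 regions for 6 and 3, PHF19 regions for 4 and 2, and SUZ12 regions for 4 and 1. The median EZH2 difference was 1.20 for ligands and 1.10 for antagonists (ranges 0.84 to 1.58 and 0.92 to 1.34). For MTF2 the medians were 0.94 and 0.82 (ranges 0.55 to 1.24 and 0.76 to 0.94). The SUZ12 median of the ligands was 0.94 after rounding (range 0.54 to 1.57), and CHRD, the one listed antagonist, had 0.94. The PHF19 medians over input were 2.15 and 1.91 (ranges 1.62 to 3.02 and 1.69 to 2.13). The ranges overlapped in each table, so the sides were not separated by size of difference. Leaving out INHBB turned the sign of the gap between the EZH2 medians, from 0.10 to -0.015, and leaving out BMP3 widened it to 0.215. The SUZ12 gap also turned without INHBB, from -0.005 to 0.11, with CHRD as the one listed antagonist. For PHF19 the gap fell from 0.235 to 0.06 without INHBB. Levels per kb in shCTR overlapped as well, with EZH2 medians of 5.42 for ligands and 4.58 for antagonists, and MTF2 medians of 7.09 and 6.58. The SUZ12 medians were 4.97 and 4.63, with 1 antagonist listed, and the PHF19 medians were level at 5.78 and 5.79.

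H3K27me3 covered 9 of the 10 genes in both replicates of both conditions, while the shares of protein-coding genes with peaks in both were 13.1% (shCTR) and 18.7% (shPHF19L#4). None of the 10 had a region in the H3K27me3 table, which is near the share of 3.53% over all protein-coding genes. The length covered at BMP4 was 9921 and 6728 bp in the shCTR replicates and 11129 and 11362 bp in shPHF19L#4. At INHBB it was 6152 and 4407 bp in shCTR and 6749 and 6587 bp in shPHF19L#4. At BMP2 it was 4076 and 858 bp in shCTR and 4042 and 5147 bp in shPHF19L#4. At BMP2 the conditions were thus close in replicate 1 and far apart in replicate 2. BMP3 had 15685 and 1131 bp covered in shCTR and 12988 and 22868 bp in shPHF19L#4, and in replicate 2 of shCTR its one peak lay around the start.

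The spread between replicates varied over the remaining genes. BMP6 had 11050 and 5237 bp covered in shCTR and 14204 and 12073 bp in shPHF19L#4, and BMP7 had 13872 and 3714 bp, then 14619 and 19216 bp. CHRD had 5110 and 3387 bp in shCTR and 5621 and 6380 bp in shPHF19L#4. FST had 4054 and 4763 bp, then 7492 and 7497 bp, so that its replicates were closer to each other than those of BMP2. GREM1 had 4500 and 1049 bp in shCTR and 4400 and 4773 bp in shPHF19L#4.

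The peak lists of the replicates also differed in direction, and they did so across the genome. In replicate 2 the covered length was larger in shPHF19L#4 at 10 of 10 genes, against 98.5% of all genes with a peak in either list, and in replicate 1 at 6 of 9, against 42.4%. The highest H3K27me3 score of a gene was higher in shPHF19L#4 at 9 of 9 genes in replicate 2, against 99.2%, and at 4 of 9 in replicate 1, against 41.7%. In replicate 1, the INHBB score went from 1670 (shCTR) to 373 (shPHF19L#4), and in replicate 2 from 794 to 3100, a value shared by 719 peaks of that list. The FST score went from 288 to 663 in replicate 1 and from 304 to 2323 in replicate 2. The score of INHBB thus moved in opposite directions in the replicates, while its covered length was larger in shPHF19L#4 in both, and the score of FST moved in the same direction in both. Neither MACS scores nor covered lengths are scaled between lists, and the part of sequencing depth in these shifts was not tested. The paper scaled its signal by reads of added fly chromatin. On that measure, not read here, it reports higher H3K27me3 at target genes after depletion in each replicate. The lists of replicate 1 are thus not evidence of a loss of the mark.

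NOG was the one gene without an H3K27me3 peak in its interval in either shCTR list. In those lists the nearest peaks began 58 and 181 bp past the gene end, with scores of 60.3 and 60.2. In replicate 1 of shPHF19L#4 the nearest peak lay 29230 bp from the interval. Replicate 2 had 2 peaks in it, the higher with a score of 1310, and together they covered 3000 bp of the 4413 bp interval. The peak at NOG in shPHF19L#4 therefore rests on replicate 2 alone.

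MTF2 peaks in both replicates were found at 9 genes in shPHF19L#4 (10.2% of all protein-coding genes), after 7 in shCTR. The genes added were BMP3 and NOG, and the peak list of shPHF19L#4 replicate 1 lacked a peak at GREM1. At BMP3 the MTF2 peaks covered 0 and 3511 bp in the shCTR replicates and 2312 and 3867 bp in shPHF19L#4. At NOG they covered 0 and 2151 bp in shCTR and 64 and 3751 bp in shPHF19L#4, so that the replicate 1 peak in depleted cells touched little more than the gene's last bases. At BMP2 the MTF2 peaks covered 1515 and 3608 bp in shCTR and 3297 and 3830 bp in shPHF19L#4. At INHBB they covered 4931 and 5262 bp, then 5397 and 6526 bp, and at FST 4848 and 5566 bp, then 5609 and 5864 bp. BMP7 went up in replicate 1, from 3590 to 4383 bp, and down in replicate 2, from 10743 to 7123 bp. The covered length was larger in shPHF19L#4 at 8 of 9 genes in replicate 1, against 85.8% of genes with a peak in either list, and at 7 of 10 in replicate 2, against 59.8%. In replicate 2, the score of the highest MTF2 peak was higher in shPHF19L#4 at 5 of 10 genes, against 74.8%. At the other 5 (BMP4, BMP6, BMP7, INHBB and CHRD) it was 3100 in both lists, a value shared by 275 peaks in shCTR and 1064 in shPHF19L#4. GREM1 had scores of 300 and 1166, NOG of 308 and 2042, and BMP2 of 1170 and 3100.

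A list of 47 other genes of the pathway was read in the same way. Of these, 13 had an EZH2 region, 12 an MTF2 region, 6 a PHF19 region, 2 an H3K27me3 region and 1 a SUZ12 region, and 34 had none. The shares over all protein-coding genes were those given above (9.54%, 9.02%, 4.64%, 3.53% and 2.44% in the same order), and the H3K27me3 and SUZ12 counts were near them. By role, EZH2 regions were found at 2 of 13 other ligands, 4 of 11 other antagonists, 5 of 13 receptors or co-receptors, 1 of 6 SMAD genes and 1 of 4 ID genes, which are BMP target genes. All 13 EZH2 and all 12 MTF2 differences were above 0, with medians of 1.25 and 0.94, a direction shared with nearly every region of these tables.

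The genes of this list with a PHF19 region were GDF7, FSTL1, BMPR1B, BAMBI, RGMA and ID4. GDF7, a ligand of the BMP family, had means of 6.72 in PHF19 ChIP and 5.18 in input, and EZH2 means of 7.82 in shCTR and 9.18 in shPHF19L#4. BMPR1B, a type I BMP receptor, had PHF19 means of 6.72 and 4.39 and EZH2 means of 6.33 and 7.30. BAMBI, a pseudoreceptor that dampens signalling, had a PHF19 difference of 1.66 and EZH2 means of 6.36 and 7.65. The PHF19 differences of the 6 genes ran from 1.40 to 2.33, within or below the range of the 10 genes. FSTL3 and SMAD6, an activin-binding protein and an inhibitory SMAD, were the ones with an H3K27me3 region and are named after their values were seen. Their H3K27me3 means were 6.03 and 7.55 for FSTL3 and 6.46 and 7.55 for SMAD6, in shCTR and shPHF19L#4, and 99.9% of the regions of that table were higher in shPHF19L#4, with a median difference of 1.13.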

How the data were processed

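The authors mapped ChIP-seq reads with Bowtie to hg19, with the fly genome added where spike-in chromatin was used, and called peaks replicate by replicate with MACS. The deposited score of a peak is a MACS score, in PHF19 replicate 1 a number of tags, and MTF2 replicate 1 lists hold positions only. The log2 read concentrations are the authors' means over replicates from DiffBind; whether spike-in reads scaled them is not given in the sources used here. The tables' fold, P value and FDR columns hold the authors' comparisons and were not used. The pathway list, like the members, was chosen with earlier results of these data known.

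The annotation was GENCODE release 44 on GRCh37; RefSeq was used by the authors. Overlaps were counted by code tested on simulated data (Python 3.11.15, pandas 2.3.3, numpy 2.4.6), and sequences were read with pysam 0.24.0. Where a gene had several regions, the one with the highest mean of both concentrations was used. Named were all 10 genes and, of the 47 pathway genes, those with a PHF19 region; FSTL3 and SMAD6 were added after their values were seen. Alternatives were a window of 2.5 kb around the start, a score of at least 100, 50% of a peak inside the interval, each replicate left out, a difference of at least 1, the mean over regions, INHBB or BMP3 left out, and, chosen after seeing the data, the canonical start. Depth is unknown, as the lists hold no read totals. Input and IgG reads, RNA-seq and the shPHF19L#4 peaks of PHF19, EZH2 and SUZ12 were not analysed here. Sequence content at BMP2 and BMP4 is not reported here.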

Additional observations from a re-analysis of the deposited data

How the results depend on the processing

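Counts were taken as unchanged within 1.5 times, and medians within 1 SD over the genes. Some alternatives could change nothing, so the number of unchanged values is no measure of stability: each gene had 1 region per table, BMP3 has no PHF19 or SUZ12 region, and a stricter cut cannot alter a count of 0. With a MACS score of at least 100, the genes with a peak in both shCTR replicates fell to 3 for EZH2 and 1 for SUZ12. This cut was not applied to replicate 1 of PHF19, which holds tags, or of MTF2, which holds no score, so it was no full test of these counts. The H3K27me3 counts became 6 in shCTR and 8 in shPHF19L#4; the shares of all protein-coding genes under the cut are given with the results. With a difference of at least 1, the genes with a region fell to 2 for SUZ12 and 2 for MTF2. With 1 replicate left out, so that the other list alone was counted, the number of genes in shCTR was 5 to 9 for PHF19, 5 to 8 for EZH2 and 2 to 5 for SUZ12, the higher number coming from replicate 2 in each case. The gap between ligand and antagonist medians changed sign when INHBB was left out, from 0.10 to -0.015 for EZH2 and from -0.005 to 0.11 for SUZ12, where 1 antagonist is listed; for PHF19 it fell from 0.235 to 0.06 without INHBB, and for EZH2 it rose to 0.215 without BMP3. These gaps are smaller than the spread over the genes. The H3K27me3 count in shCTR became 10 in the window around the start, since the peaks past the end of NOG then fall inside. Intervals from the canonical start, an alternative chosen after seeing the data, gave equal counts. No paired analysis of the table differences was possible because the tables hold no value per replicate; the peak lists were set side by side within each replicate. The tables list only regions under the authors' threshold, so a gene without a region is not shown to be unchanged, and the unknown depth of each list limits any reading of a missing peak.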
